A study of Mus musculus with 3 samples.

Results

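*Pvalb*, *Calb1* and *Calb2* encode parvalbumin, calbindin and calretinin, and their transcripts were described here in nuclei of the adult mouse basolateral amygdala (BLA). These are 3 of the 32285 genes in the deposited count tables, and they were picked by name, not by their values. The tables come from single-nuclei RNA sequencing (snRNAseq), in which a barcode names the droplet, and so the nucleus, that a transcript came from, and a unique molecular identifier (UMI) tells captured molecules from their PCR copies. Male C57BL/6NRj mice at postnatal day 56 were the only group, without treatment or transgene. The BLA was microdissected from slices, with 4 brains per dataset, and libraries were made with the Chromium 3' v3.1 kit. Of 3 libraries, library 2 (3792 barcodes, 24354374 UMIs) and library 3 (4588 barcodes, 33049068 UMIs) were used, and library 1 (819 barcodes, 8078394 UMIs) had only 7 GABAergic and 42 glutamatergic barcodes by the criteria used here. Libraries 2 and 3 had 7 barcode sequences in common. Replicates are libraries and not nuclei (n = 2), and since the labels do not settle whether they hold separate pools of brains, p-values measure only the spread between these libraries.

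Parvalbumin, calbindin and calretinin are small cytosolic proteins that bind calcium through EF-hand loops and so shape how long a calcium signal lasts after a spike. In cortex-like structures such as the BLA they are classical labels of inhibitory interneurons: parvalbumin for fast-spiking basket and chandelier cells, calbindin for an overlapping set that includes many somatostatin cells, and calretinin for cells that often also carry vasoactive intestinal peptide (VIP). Some excitatory neurons contain calbindin as well.

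In the GRCm38 assembly (GENCODE vM21 annotation), *Pvalb* (ENSMUSG00000005716) lies on the minus strand of chromosome 15 from 78191114 to 78206400. *Calb1* (ENSMUSG00000028222) lies on the plus strand of chromosome 4 from 15881264 to 15908064, and *Calb2* (ENSMUSG00000003657) on the minus strand of chromosome 8 from 110137502 to 110168210. All 3 are protein-coding, and 0 annotated genes overlap any of them.

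Nuclei were sorted by UMIs of a few marker genes. A GABAergic nucleus had at least 2 UMIs of *Gad1* and *Gad2* together and 0 of the vesicular glutamate transporters *Slc17a7* and *Slc17a6*, and a glutamatergic nucleus the reverse. In both, the astrocyte transporters *Slc1a2* and *Slc1a3* made up less than 0.1% of UMIs. Libraries 2 and 3 held 388 and 677 GABAergic nuclei, with medians of 7646 and 7246 UMIs, and 484 and 210 glutamatergic nuclei, with medians of 15526 and 13077 UMIs. Oligodendrocytes (205 and 321 nuclei, medians of 2272 and 2076 UMIs) and astrocytes (321 and 828 nuclei, medians of 2994 and 3021 UMIs) should lack the 3 genes and gave the background of free RNA. The gates fitted other markers of the classes. *Dlx6os1*, a transcript of the GABAergic lineage, was found in 68.9% ± 3.82 (SD, n = 2) of GABAergic and 4.85% ± 1.89 of glutamatergic nuclei. *Slc32a1*, the vesicular GABA transporter, was sparse at 12.3% ± 4.07 against 0.683% ± 0.381.

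GABAergic nuclei were split further by *Foxp2* (at least 3 UMIs), *Sst* (somatostatin, at least 1), *Moxd1* (a monooxygenase-like gene, at least 2) and *Vip* (at least 1). A single gate was met by 464 nuclei for *Foxp2*, 59 for *Sst*, 93 for *Moxd1* and 35 for *Vip*, 328 met none and 86 met several. These groups are called here by their gate. Because deeper nuclei show more genes, each share of nuclei with a UMI was also computed as the share expected after thinning to 1200 UMIs. Nuclei with fewer than 1200 UMIs were left out of the thinned shares. In libraries 2 and 3 these were 35 of 205 and 37 of 321 oligodendrocytes, and 29 of 321 and 41 of 828 astrocytes. Levels are given as CPM, in which the UMIs of a gene, added up across a group's nuclei in each library, are scaled to a common total of UMIs. Intervals for single libraries are exact 95% intervals (Clopper-Pearson for shares, Poisson for CPM) and, like the limits given for counts of 0, cover counting error only.

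*Calb1* was the gene of the 3 that was found in many nuclei, and its level was higher in GABAergic than in glutamatergic nuclei. In GABAergic nuclei it was found in 117 of 388 (30.2%, 25.6 to 35.0) in library 2 and 195 of 677 (28.8%, 25.4 to 32.4) in library 3. Glutamatergic nuclei had it in 110 of 484 (22.7%, 19.1 to 26.7) and 49 of 210 (23.3%, 17.8 to 29.6). The raw shares of the classes lie close together, but glutamatergic nuclei were deeper. Thinned to 1200 UMIs, the share was 10.7% ± 0.461 in GABAergic, 2.94% ± 0.204 in glutamatergic, 0.894% ± 0.197 in oligodendrocyte and 0.267% ± 0.275 in astrocyte nuclei (SD, n = 2). Unthinned, oligodendrocytes had 2.38% ± 0.603 and astrocytes 1.04% ± 0.584. The glutamatergic share was thus above that of either glial background in both libraries, and the GABAergic share above all of them.

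The summed level of *Calb1* in GABAergic nuclei was 138 CPM (126 to 151) in library 2 and 139 CPM (130 to 149) in library 3. Glutamatergic nuclei had 22.3 CPM (19.2 to 25.7) and 26.5 CPM (21.1 to 32.8), oligodendrocytes 6.64 and 12.2 CPM, and astrocytes 1.95 and 4.34 CPM. The sums were tested with edgeR's quasi-likelihood test across 12866 genes, of which 16.4% passed an adjusted p of 0.05 (8.65% higher and 7.73% lower in GABAergic nuclei). *Calb1* was higher in GABAergic nuclei by 2.51 ± 0.19 on the log2 scale (SE; edgeR adjusted p = 1.88e-06). With both sums of a library kept as a pair, 3207 in place of 2108 genes passed. With library 1 added, whose GABAergic sum rests on 7 nuclei, 0 genes passed and *Calb1* gave 2.01 (edgeR adjusted p = 0.143).

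The number of *Calb1* UMIs per nucleus separated the classes further. Among GABAergic nuclei with *Calb1*, 34 of 117 in library 2 and 59 of 195 in library 3 had 5 or more UMIs, and the most in a nucleus was 29 and 27. Among glutamatergic nuclei with *Calb1*, 3 of 110 and 3 of 49 had 5 or more, and the most was 8 and 6. At least 2 UMIs were found in 19.7% ± 2.38 of GABAergic, 9.04% ± 0.660 of glutamatergic and 0.156% ± 0.220 of oligodendrocyte nuclei.

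**Figure D1:**
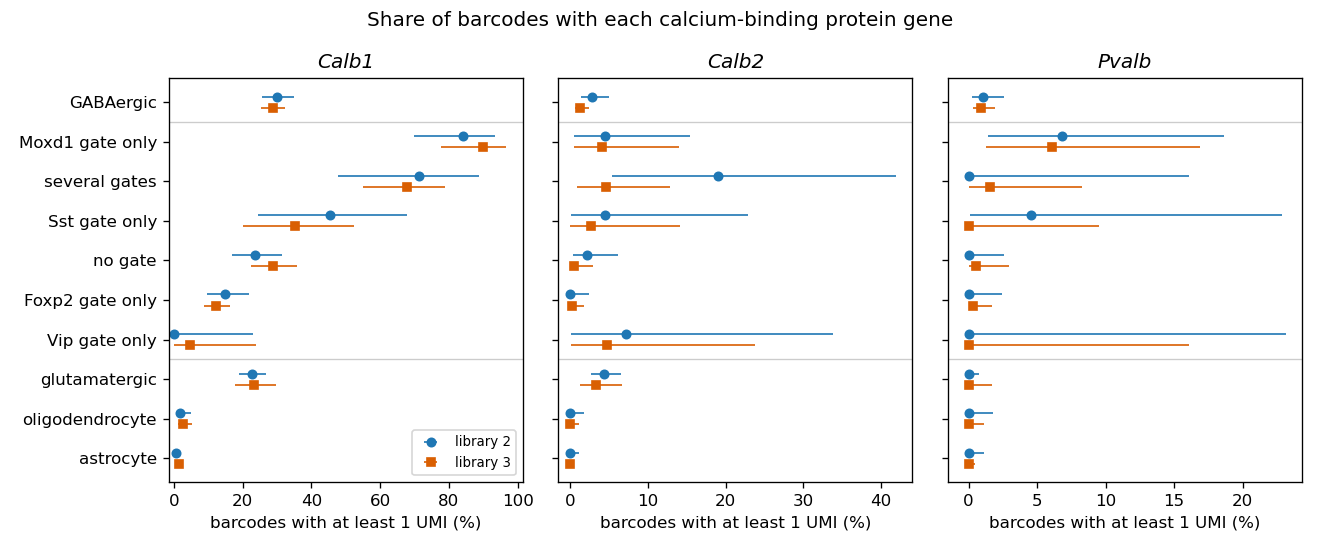
Share of nuclei with at least 1 UMI of each gene (x axis, %; the ranges differ between panels) by class and GABAergic group, with exact 95% intervals, for library 2 (circles) and library 3 (squares). *Calb1* ran from 84.1% and 89.8% in the *Moxd1* group down to 0 and 4.76% in the *Vip* group, while *Pvalb* was at 6.82% and 6.12% in the *Moxd1* group and at 0 in glutamatergic nuclei.

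Within GABAergic nuclei, *Calb1* followed the *Moxd1* gate more closely than the *Sst* gate. The 2 gates differ in threshold. With at least 1 UMI of the gene, *Calb1* was in 72.1% ± 11.2 of *Moxd1* and 59.2% ± 1.82 of *Sst* nuclei (SD, n = 2). The gates were chosen with earlier results of these data known, so a high *Calb1* level within a gate is no independent finding. In the *Moxd1* group 37 of 44 (84.1%) and 44 of 49 (89.8%) nuclei had it, at 478 and 536 CPM. This was the highest level among the groups in both libraries. Against the mean of the other 4 groups it was higher by 3.99 ± 0.24 on the log2 scale (SE; edgeR adjusted p = 8.45e-09), in a fit in which 9.58% of 6983 genes passed for this group (5.41% higher and 4.17% lower).

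The *Sst* group had *Calb1* in 10 of 22 (45.5%) and 13 of 37 nuclei (35.1%), at 87.9 and 105 CPM. Its difference from the mean of the other 4 groups, 0.99 ± 0.40, did not pass (edgeR adjusted p = 0.303, 2.79% of genes passed, 2.18% higher and 0.616% lower). That mean was taken on the log2 scale and includes the *Vip* group, at 3.37 ± 4.76 CPM (SD, n = 2). A positive difference therefore does not place a group above each of the others. With every nucleus past the *Sst* gate counted, whatever its other gates, the difference from the GABAergic nuclei outside the gate was 0.93 (edgeR adjusted p = 0.0433). Of the 126 nuclei past the *Sst* gate, 49 also passed the *Moxd1* gate, so both gates were read together.

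Nuclei past both gates had *Calb1* in 11 of 14 (78.6%) in library 2 and 34 of 35 (97.1%) in library 3. With *Moxd1* but not *Sst* it was 39 of 49 (79.6%) and 49 of 58 (84.5%), with *Sst* but not *Moxd1* 12 of 24 (50.0%) and 17 of 53 (32.1%), and with neither 55 of 301 (18.3%) and 95 of 531 (17.9%). Thinned, these were 36.3% ± 7.48, 38.2% ± 2.06, 10.4% ± 2.60 and 5.56% ± 0.315 (SD, n = 2), in the same order of combinations. In both libraries, the 2 combinations with *Moxd1* lay above the 2 without it, and the shares with and without *Sst* among *Moxd1* nuclei did not differ beyond their spread.

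**Figure D2:**
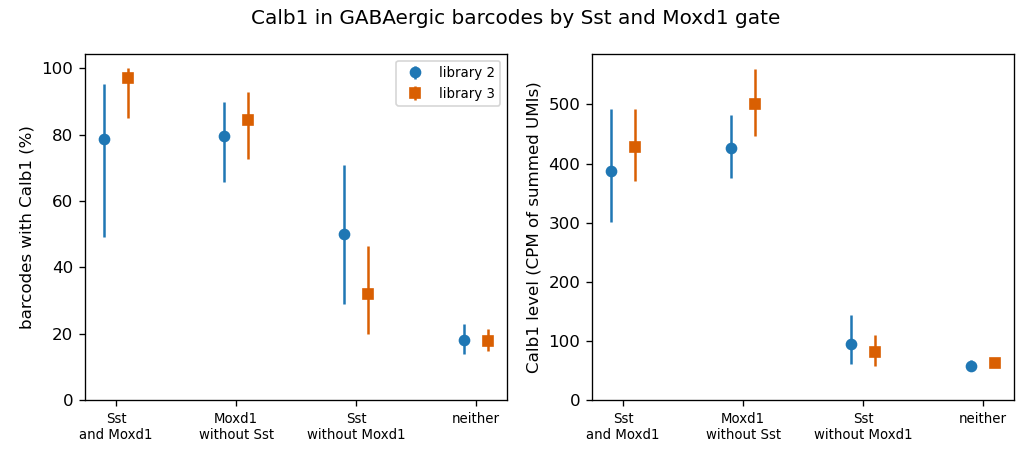
*Calb1* in GABAergic nuclei sorted by the *Sst* and *Moxd1* gates, as share of nuclei (left, %) and as CPM of summed UMIs (right), with exact 95% intervals, for library 2 (circles) and library 3 (squares). Both combinations with *Moxd1* were at 388 to 500 CPM, against 81.8 and 95.8 CPM with *Sst* alone and 57.8 and 64.0 CPM with neither.

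Nuclei without any gate had *Calb1* in 33 of 140 (23.6%) and 54 of 188 (28.7%), at 101 and 145 CPM, below the *Moxd1* group at 478 and 536 CPM. The difference from the mean of the other 4 groups, with the *Vip* group among them, was 1.43 ± 0.31 on the log2 scale (edgeR adjusted p = 0.0169, 2% of genes passed, 1.8% higher and 0.2% lower). That call was lost with stricter gates (0.74, edgeR adjusted p = 0.299), with DESeq2 (adjusted p = 0.0842) and with at least 4 transmitter UMIs (edgeR adjusted p = 0.0540). With both sums of a library kept as a pair, 273 in place of 140 genes passed for this group. The *Foxp2* group had *Calb1* in 22 of 147 (15.0%) and 39 of 317 nuclei (12.3%), at 28.9 and 18.2 CPM. Its difference from the mean of the other 4 groups, −1.58 ± 0.65, did not pass (edgeR adjusted p = 0.115, 16.9% of genes passed, 10.1% higher and 6.86% lower). It passed with stricter gates (−2.01, edgeR adjusted p = 0.00743), with DESeq2 (adjusted p = 0.00753) and against all GABAergic nuclei outside the *Foxp2* gate (−2.61, edgeR adjusted p = 9.12e-07).

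*Vip* nuclei had the least *Calb1*: 0 of 14, which allows a share of up to 21.4%, and 1 of 21 (4.76%). The difference of −4.82 ± 0.78 passed (edgeR adjusted p = 0.000487, 5.9% of genes passed, 3.47% higher and 2.43% lower), and it rests on 1 UMI in 35 nuclei. Past several gates, 15 of 21 (71.4%) and 44 of 65 nuclei (67.7%) had *Calb1*. The order of the groups by level was therefore *Moxd1*, several gates, then the nuclei without a gate and the *Sst* group, which do not differ beyond their spread, then *Foxp2* and *Vip*.

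**Figure D3:**
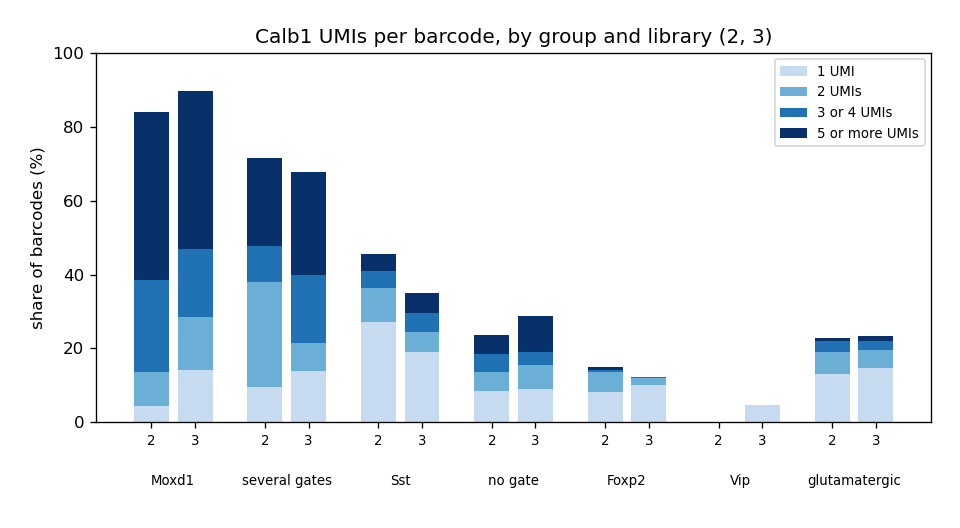
Share of nuclei (y axis, %) with 1, 2, 3 or 4, and 5 or more *Calb1* UMIs, stacked, in each GABAergic group and in glutamatergic nuclei of libraries 2 and 3. In the *Moxd1* group 20 of 44 and 21 of 49 nuclei had 5 or more UMIs, in the *Foxp2* group 1 of 147 and 0 of 317.

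Counted the other way, the 312 GABAergic nuclei with *Calb1* were a mixed set. The *Moxd1* gate was met by 133 (42.6%), the *Foxp2* gate by 78 (25.0%), the *Sst* gate by 74 (23.7%) and the *Vip* gate by 3 (0.962%), while 87 (27.9%) met none. Of all 1065 GABAergic nuclei, 156 met the *Moxd1* gate, 504 *Foxp2*, 126 *Sst* and 41 *Vip*, and 328 met none. Among the nuclei with no gate, those with *Calb1* still differed from those without. *Sox6*, a transcription factor of interneurons from the medial ganglionic eminence, was in 49 of 87 (54.5% and 57.4% in the libraries) against 59 of 241 (27.1% and 22.4%), and *Lhx6*, another such factor, in 24 of 87 (29.9% ± 13.5) against 23 of 241 (9.52% ± 0.252). *Adarb2*, which marks interneurons of the caudal ganglionic eminence, showed the opposite order with 54.1% ± 0.595 against 77.9% ± 1.75. Values with ± are means and SD over 2 libraries, and none of these was tested.

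The split of GABAergic nuclei by presence of *Calb1* was compared across the genome, with sums of the nuclei with and without it in each library. Nuclei with *Calb1* were deeper (medians of 10334 and 9012 UMIs against 6980 and 6624), and the part of depth in the result was not tested. Of 10485 genes, 408 passed in edgeR (3.89%), 218 of them higher (2.08%) and 190 lower (1.81%) in nuclei with *Calb1*. With both sums of a library kept as a pair, 1334 passed, and with library 1 added, 187. By the rule that took the largest differences, the higher genes were *Gm26633*, *Tmem132cos*, *Gm31218*, *Crhbp*, *Arhgap28*, *Gna14*, *Gm45025*, *Alkal2*, *Nxph2* and *Moxd1*, and the lower ones *Ndnf*, *Sh2d4b*, *Vip*, *Otogl* and *Rassf2*.

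*Crhbp*, the secreted protein that binds corticotropin-releasing hormone, was at 40.3 ± 15.8 CPM with and 3.28 ± 1.28 CPM without *Calb1* (SD, n = 2; log2 difference 3.64 ± 0.37 SE, edgeR adjusted p = 2.52e-05). *Nxph2*, a neurexophilin that binds neurexins, was at 67.9 ± 3.79 against 6.54 ± 5.30 CPM (3.18 ± 0.34, edgeR adjusted p = 3.51e-05), and *Gna14*, a G protein alpha subunit, at 28.4 ± 14.7 against 2.45 ± 0.479 CPM. *Moxd1* itself was at 220 and 187 against 32.1 and 15.0 CPM. On the other side, *Ndnf*, the marker of neurogliaform cells, was at 0.231 ± 0.327 against 21.2 ± 7.67 CPM, and *Vip* at 1.52 ± 0.842 against 18.5 ± 6.02 CPM. That the sums with *Calb1* lay on the stated side in both libraries was part of the rule that named these genes, and is not a result.

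**Figure D4:**
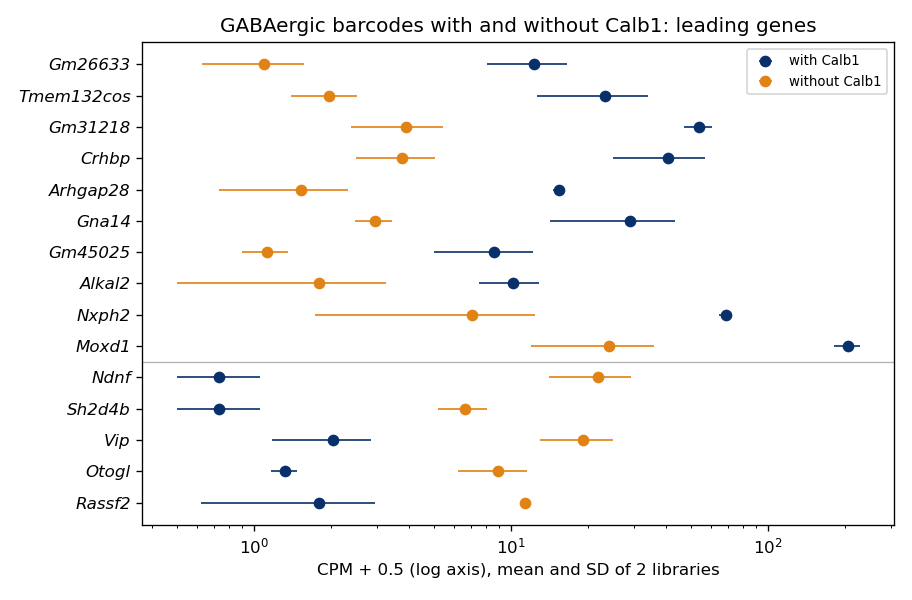
Level of the genes with the largest differences between GABAergic nuclei with and without *Calb1*, as mean and SD over 2 libraries (x axis, CPM + 0.5, log axis); the upper 10 genes were higher and the lower 5 lower with *Calb1*. *Moxd1* stood at 203 CPM with and 23.5 CPM without *Calb1*.

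Of the 26 genes chosen as partners of the 3 proteins, those that rose with *Calb1*, besides *Moxd1*, were *Sox6* by 2.49, *Lhx6* by 2.16, *Sst* by 1.89 and *Satb1* by 1.17 on the log2 scale, with *Htr2a* (a serotonin receptor) by 0.99 and *Tshz2* by 0.85 (edgeR adjusted p from 6.32e-06 for *Sox6* to 0.0155 for *Htr2a*). Those that fell were *Prox1* by 2.03, *Foxp2* by 1.91, *Lamp5* by 1.83, *Reln* by 1.29 and *Egfr* by 1.18 (edgeR adjusted p from 0.00086 for *Egfr* to 0.0104 for *Lamp5*), besides *Ndnf* and *Vip*. *Adarb2* (−0.42), *Rarb* (−0.80), *Erbb4* (−0.41) and *Cnr1* (0.49) did not pass (edgeR adjusted p = 0.680, 0.211, 0.750 and 0.334). With the sums of a library kept as a pair these 4 passed (edgeR adjusted p = 4.75e-05, 1.86e-08, 7.39e-05 and 0.0107). For *Cnr1* the log2 difference was −0.03 in library 2 and 0.92 in library 3, so its call rests on library 3. *Tac1* (1.24), *Npy* (0.62), *Nos1* (−0.34), *Penk* (−0.61) and *Cck* (0.47) did not pass in either fit. *Lhx6* illustrates the shift: 45 of 62 (72.6%) and 53 of 75 nuclei (70.7%) with *Lhx6* had *Calb1*, against 22.1% and 23.6% without it.

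Gene lists of related function moved in part with *Calb1*. Over all genes tested, 2.08% were higher and 1.81% lower with *Calb1*. Of 18 genes linked to fast-spiking cells, 15 were tested and 6 were higher, among them *Sox6*, *Lhx6*, *Satb1*, the potassium channel *Kcnc2* and *Btbd11*, with a list median of 0.98 against 0.01 over all genes. *Sox6*, *Lhx6* and *Satb1* are also among the partner genes given above. They were higher in the *Sst* group too, by 2.76, 2.61 and 2.56 against the mean of the other 4 groups. The list thus also holds genes shared with other interneuron groups. Of 29 other EF-hand genes, 22 were tested: *Kcnip1*, a potassium channel subunit, was higher by 1.02, and *Kcnip3*, *Caln1* and *Ncald* were lower by −0.78, −1.13 and −0.79 (list median −0.27). Of 22 genes of calcium transport, 21 were tested and *Slc8a2*, *Ryr1* and *Cacna1h* were lower (list median −0.16). Lists were not tested as sets.

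Between the classes, 10 of 16 tested genes of the fast-spiking list were higher in GABAergic nuclei, among them *Lhx6* and *Kcnc2*, a potassium channel of fast-spiking cells, by 3.61, and *Satb1* and *Kcnc4* were lower. Over all genes tested, 8.65% were higher and 7.73% lower. Of the EF-hand list, 1 of 25 was higher (*Kcnip1*, 4.12), or 4.00%, and 5 were lower (*Hpcal1*, *Necab3*, *Hpcal4*, *Kcnip3* and *Cabp1*). The calcium transport list gave 1 higher of 21, or 4.76% (*Atp2b2*, a plasma membrane calcium pump), and 3 lower (*Ryr2*, *Slc8a2*, *Atp2b1*). *Calb1* was most like *Nek7*, *Myo5b*, *Supt3*, *Mkx* and *Mitf* across the 12 sums of 5 GABAergic groups and the glutamatergic class in 2 libraries, with Pearson correlations of 0.942 to 0.985 of log2(CPM + 1). The 12 points share 2 libraries and were given no p. *Pvalb* (10 UMIs) and *Calb2* (47 UMIs) were too sparse over these sums for such a ranking.

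Within glutamatergic nuclei, *Calb1* was unevenly spread over markers of excitatory types, 12 genes added after the tables were seen. Nuclei with *Cdh13* had it in 98 of 359 (27.3%) and 46 of 160 (28.8%), against 12 of 125 (9.60%) and 3 of 50 (6.00%) without *Cdh13*. The CPM was 28.0 and 31.1 against 6.34 and 6.70. *Otof* gave 33.2% ± 4.33 against 12.9% ± 0.756 and 32.7 ± 2.18 against 13.9 ± 4.76 CPM, and *Rspo2*, which encodes a secreted enhancer of Wnt signals, the opposite order, with 8.25 and 16.1 CPM in nuclei with it against 31.2 CPM without it in both libraries. For *Slc17a6*, the second glutamate transporter, the level was 25.1 ± 1.02 CPM in nuclei with it and 24.5 ± 4.56 CPM without it, which overlap. None of these splits was tested. Between glutamatergic nuclei with and without *Calb1*, 0 of 10448 genes passed in edgeR, 364 had an unadjusted p under 0.05, DESeq2 called 3, and 118 passed with the sums of a library kept as a pair.

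*Calb2* was rare in both classes. Library 2 had it in 11 of 388 GABAergic (2.84%, 1.42 to 5.02) and 21 of 484 glutamatergic nuclei (4.34%, 2.71 to 6.56), and library 3 in 9 of 677 (1.33%, 0.610 to 2.51) and 7 of 210 (3.33%, 1.35 to 6.75). Its level was 2.30 ± 1.11 CPM in GABAergic and 2.71 ± 0.713 CPM in glutamatergic nuclei, and the log2 difference of −0.39 ± 0.48 did not pass (edgeR adjusted p = 0.708). No UMI was found in oligodendrocytes or astrocytes, at limits of up to 1.46% and 0.935% of nuclei in oligodendrocytes and 0.935% and 0.362% in astrocytes, in libraries 2 and 3. Thinned, *Calb2* was at 0.229% ± 0.0784 in GABAergic and 0.300% ± 0.103 in glutamatergic nuclei.

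All 20 GABAergic nuclei with *Calb2* had 1 UMI of it, whereas 4 glutamatergic nuclei of library 2 had 2 UMIs and another had 3. They were spread over the gates: 10 of 20 passed the *Moxd1* gate, 8 the *Sst* gate, 3 the *Vip* gate and 2 the *Foxp2* gate, 7 of them more than 1 gate and 4 none. *Sox6* was found in 16 of the 20, *Lhx6* in 11 and *Htr2a* in 9, against mean shares of 33.3%, 12.6% and 17.2% of GABAergic nuclei without *Calb2*. *Cck* was in 0 of the 20 and in 5.08% of the others. By gate, *Calb2* was found in 5 of 38 (13.2%) and 3 of 88 (3.41%) nuclei with *Sst*, 6 of 63 (9.52%) and 4 of 93 (4.30%) with *Moxd1*, and 1 of 15 (6.67%) and 2 of 26 (7.69%) with *Vip*. All these intervals overlap. The *Foxp2* gate had 0 of 153, which allows up to 1.96%, and 2 of 351 (0.570%).

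Between GABAergic nuclei with and without *Calb2*, 250 of 10116 genes passed in edgeR (2.47%, with 0.643% or 65 higher and 1.83% or 185 lower). DESeq2 called 79 of the 3252 genes it tested. The count was 78 of 10415 when a nucleus was allowed 1 UMI of the other transmitter's genes for each 5 of its own. With library 1 added, it was 0 of 2357. The median of all genes was −0.11 on the log2 scale, and nuclei with *Calb2* were deeper (medians of 14664 and 9706 UMIs against 7579 and 7212). *Masp1*, a protease of the complement system, was higher by 3.11, at 54.5 and 97.0 against 8.52 and 6.31 CPM, and *Edaradd* by 3.16. Of the partner genes, *Satb1*, *Lhx6*, *Sox6*, *Moxd1* and *Sst* were higher by 1.77, 1.63, 1.57, 1.5 and 1.43, and *Foxp2*, *Rarb*, *Adarb2* and *Reln* were lower (−3.84, −1.58, −1.24 and −1.14). The call of *Lhx6* was lost with the sums of a library kept as a pair (edgeR adjusted p = 0.182). *Calb1* was at a log2 difference of 0.71 ± 0.28, which did not pass (edgeR adjusted p = 0.220).

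Among the lower genes, *Gm13974*, *Arhgap10*, *Lrtm1*, *Sh3bgrl* and *Gm6994* had 0 UMIs in the 20 nuclei. Their levels in the other nuclei were 3.52, 3.44, 3.07, 2.84 and 2.44 times what 3 UMIs over both libraries would give in the 20. Being named for their large differences, they have no valid lower bound from these ratios. Of the lists, 3 of 13 fast-spiking genes were higher while the list's median was −0.60. These were *Satb1*, *Lhx6* and *Sox6*, which were also higher in the *Sst* group. Lower were 2 of 20 EF-hand genes (*Kcnip3*, *Caln1*) and 2 of 21 of calcium transport (*Ryr1*, *Atp2b4*). Over all genes tested, 0.643% were higher and 1.83% lower with *Calb2*.

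In glutamatergic nuclei, *Calb2* was found more often with *Adamts2*, an extracellular protease gene. Of nuclei with *Adamts2*, 14 of 146 (9.59%) and 5 of 57 (8.77%) had *Calb2*, against 7 of 338 (2.07%) and 2 of 153 (1.31%) without it. *Etv1*, a transcription factor, gave 17 of 273 (6.23%) and 6 of 115 (5.22%) against 4 of 211 (1.90%) and 1 of 95 (1.05%). For both genes the order was the same in each library and after thinning (*Adamts2*, 0.556% ± 0.0736 against 0.196% ± 0.106), but the nuclei with them were also deeper, with medians of 18480 and 15295 UMIs against 14683 and 12433 for *Adamts2*. Between glutamatergic nuclei with and without *Calb2*, 0 of 10036 genes passed in edgeR, 662 had an unadjusted p under 0.05, DESeq2 called 3, and 77 passed with the sums of a library kept as a pair.

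*Pvalb* was found in 10 GABAergic nuclei. Library 2 had 4 of 388 (1.03%, 0.282 to 2.62) and library 3 had 6 of 677 (0.886%, 0.326 to 1.92). No glutamatergic nucleus had it, with 0 of 484 and 0 of 210, which allow up to 0.620% and 1.43%, nor any oligodendrocyte or astrocyte. The 11 UMIs put its level at 1.15 CPM (0.576 to 2.07) in GABAergic nuclei. That estimate is 4.45 times the 0.259 CPM that 3 UMIs over the glutamatergic class would give. The ratio leaves out the counting error of the 11 UMIs, so it is not a lower bound. In oligodendrocytes 3 UMIs would give 2.11 CPM, above the GABAergic level, and in astrocytes 0.791 CPM. The absence of *Pvalb* UMIs in oligodendrocytes therefore cannot show a lower level there. Under edgeR's filter on low counts *Pvalb* was not tested. Without the filter it was past the threshold (edgeR adjusted p = 0.0179). Over all barcodes of libraries 2 and 3 it was found in 8 of 3792 and 10 of 4588.

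The *Pvalb* nuclei leaned to the *Moxd1* gate, which 7 of the 10 passed, 3 among the 63 nuclei past this gate in library 2 (4.76%) and 4 among 93 in library 3 (4.30%). Outside it *Pvalb* was in 3 nuclei. The gates of *Sst* and *Foxp2* were met by 1 and 2 of the 10, and *Vip* by 0. Because *Pvalb* has 1 UMI in 9 of the nuclei and 2 in the other, more such nuclei may have gone undetected at this depth, and the 10 are not a count of parvalbumin cells.

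Marker genes of interneurons were read in these 10 nuclei and set beside their mean share of GABAergic nuclei without *Pvalb*. *Sox6* was in 10 of 10 (33.6% of the others), *Satb1* in 5 (20.3%), *Lhx6* in 4 (13.4%) and *Tac1* in 3 (3.09%). *Adarb2* was in 5 (77.6%) and *Foxp2* in 3 (52.0%). Of further genes linked to parvalbumin interneurons, *Kcnc2* was in 10, *Kcnc1* in 7, *Syt2* in 2 and *Pthlh* in 0, without a share of the others given here. In the 20 GABAergic nuclei with *Calb2*, *Kcnc2* was in 20, *Kcnc1* in 12, and *Syt2* and *Pthlh* in 0. *Kcnc2* and *Kcnc1* were thus not particular to nuclei with *Pvalb*. *Reln* (22.6% of the others), *Prox1* (13.1%) and *Vip* (3.89%) were in 0 of the 10. The *Moxd1* group as a whole also had more *Sox6* (3.31 on the log2 scale) and less *Reln* (−2.09) and *Adarb2* (−5.23) than the mean of the other 4 groups. These 3 traits are thus not particular to nuclei with *Pvalb*. The receptor *Erbb4* was in 10 of 10, but also in 94.8% of the others. The nuclei with *Pvalb* were deeper than the others, and the part of depth in these counts was not tested. Their depth ran from 2934 to 36243 UMIs with a median of 14967. *Calb1* was in 9 of the 10: library 2 nuclei had 13, 5, 2 and 13 UMIs, and library 3 nuclei 27, 1, 9, 17, 12 and 0, the last being the shallowest nucleus. In sums, *Calb1* was higher in nuclei with *Pvalb* by 1.93 ± 0.30 on the log2 scale (edgeR adjusted p = 1.58e-05). With library 1 added this was 2.21 (edgeR adjusted p = 0.0932).

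**Figure D5:**
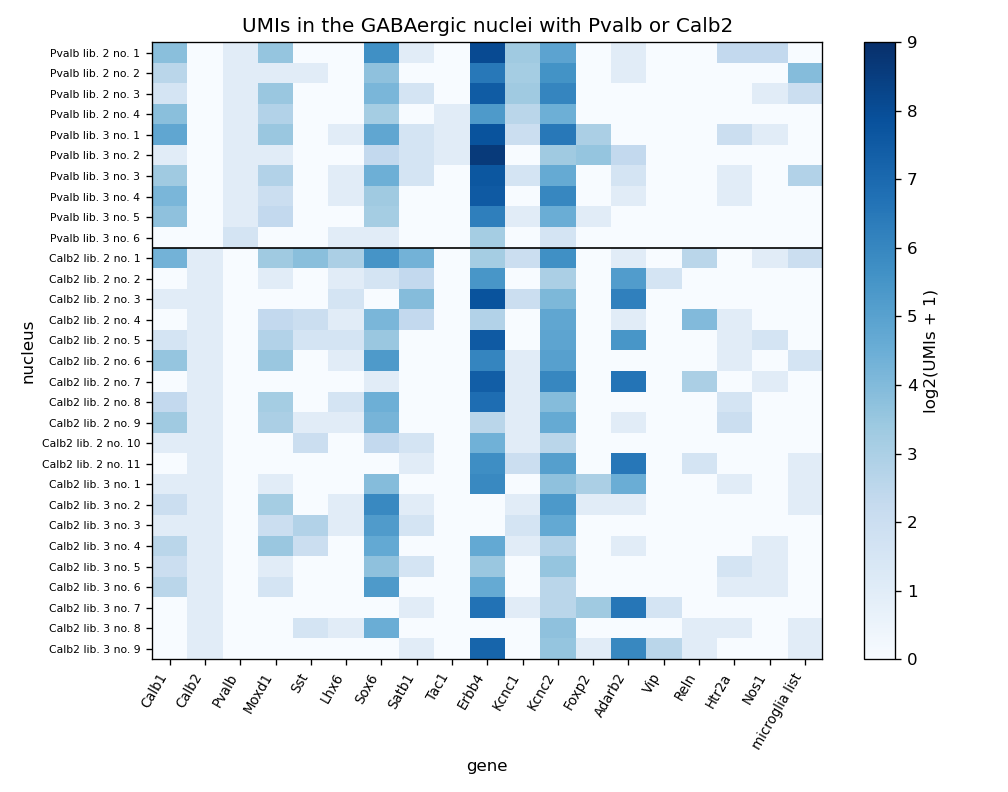
UMIs (colour, log2 of UMIs + 1) of selected genes and of the summed microglia list in the 10 GABAergic nuclei with *Pvalb* (above the line) and the 20 with *Calb2* (below), named by library and number. *Calb1* UMIs were present in 9 and 13 of these nuclei, and none had both *Pvalb* and *Calb2*.

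Of 9904 genes, 175 passed between nuclei with and without *Pvalb* (1.77%, with 0.687% or 68 higher and 1.08% or 107 lower). This split changed with the setting: DESeq2 gave 162 higher and 66 lower, and leaving out doublet-like nuclei gave 27 higher and 242 lower, with a median of all genes of −0.90. As first fitted, the median of all genes was −0.25, 4 and 6 nuclei made up the sums, and nuclei with *Pvalb* were deeper (medians of 14967 and 15288 UMIs against 7634 and 7233). *Reln*, the extracellular protein of several interneuron types, had 0 UMIs in the 10 nuclei, against 225 CPM in the rest. That level is 12.7 times what 3 UMIs in the 10 would give. *Reln* was in only 22.6% of the other nuclei, so this ratio is not a lower bound. *Slc24a4*, *Bmper*, *Kirrel* and *St18* also had 0, and their levels in the rest were 4.37, 3.78, 3.14 and 3.10 times what 3 UMIs in the 10 would give. Being named for their large differences, they have no valid lower bound from these ratios. *Btbd11*, of the fast-spiking list, was higher by 1.80 (834 ± 384 against 196 ± 56.8 CPM), the only one of 14 tested in that list, and 0 of 20 EF-hand and 0 of 21 calcium transport genes passed. With at least 4 transmitter UMIs 55 of 8903 genes passed, and with library 1 added 0 of 2191. Of the partner genes, *Adarb2* was at 32.0 and 65.7 CPM with *Pvalb* against 4263 and 4155 CPM without it (−6.54 ± 0.73, edgeR adjusted p = 1.25e-08). In the *Moxd1* group *Adarb2* was at 126 and 104 CPM, so its low level is not particular to nuclei with *Pvalb*. With *Pvalb*, *Foxp2*, *Egfr* and *Rarb* were also lower (−3.36, −4.41 and −2.66), and *Moxd1* was higher by 1.63. Without doublet-like nuclei *Adarb2* and *Foxp2* were still lower (edgeR adjusted p = 5.39e-14 and 1.95e-09), while *Egfr* and *Rarb* did not pass (0.151 and 0.201). The sums with *Pvalb* then held only 2 and 3 nuclei. P-values of this setting do not measure the spread between nuclei, so their size is no sign of robustness.

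The largest differences upward were *Slco2b1*, *Rcsd1*, *Arhgap45*, *Ctss*, *Vsir*, *Gm10790*, *Gm5086*, *Arhgap25*, *Inpp5d* and *Gm2629*. *Ctss*, a lysosomal protease, and *Inpp5d*, a lipid phosphatase, are genes of microglia. The 4 genes of a microglia list, with *Csf1r*, *Cx3cr1* and *P2ry12* among them, summed to 272 and 56.3 CPM with *Pvalb*, against 40.8 and 31.5 CPM without it, in libraries 2 and 3. These UMIs lay in 3 of the 10 nuclei (14, 3 and 6 UMIs) and the other 7 had 0. In the sums that leave out doublet-like nuclei, 5 *Pvalb* nuclei remained, none of these 10 genes was tested, *Reln* passed (edgeR adjusted p = 0.000382), and *Calb1* was higher by 2.52 (edgeR adjusted p = 7.52e-10). The part of microglial RNA in the result was not tested.

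Co-detection was set against the number expected if the genes were found independently in each library. *Pvalb* and *Calb1* were together in 9 nuclei, against 2.93 expected, or 4.09 when computed within 10 bins of nuclei ordered by depth. *Calb1* and *Calb2* were together in 13 GABAergic nuclei against 5.91, or 8.11 within the bins. Within the *Moxd1* group these counts were near those expected: *Pvalb* and *Calb1* were together in 6 nuclei against 5.22, or 5.55 within the bins, and *Calb1* and *Calb2* in 4 against 3.48, or 3.55. In glutamatergic nuclei *Calb1* and *Calb2* were together in 8, against 6.41 and 7.95. *Pvalb* and *Calb2* were together in 0 GABAergic nuclei against 0.193 expected, a number too small to show a difference. Of the *Pvalb* nuclei 90.0% and of the GABAergic *Calb2* nuclei 65.0% had *Calb1*, against 2.88% and 4.17% of the *Calb1* nuclei with *Pvalb* and *Calb2*. The counts carry no test.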

How the data were processed

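The deposited files hold UMI counts per gene and barcode, which the authors made with Cell Ranger (version 7.0.1 and build mm10 in the submitters' processing notes). The values are unnormalized counts, so the precision is set by depth, with medians of 3316 and 4116 UMIs per barcode in libraries 2 and 3. Oligodendrocytes had at least 5 UMIs of a list of myelin genes and 0 of the transmitter genes, and astrocytes at least 1% of UMIs from *Slc1a2* and *Slc1a3*. Nothing was clustered and no doublet caller was run. Barcodes with transcripts of both transmitters were left out by the gates, and an alternative also leaves out doublet-like barcodes, namely the top 5% by UMIs of each class and library and those with 5 or more UMIs of other-cell markers.

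Counts were summed per class or group and library and tested with edgeR 4.0.16 (TMM, filterByExpr, quasi-likelihood, Benjamini-Hochberg over all genes tested, threshold 0.05) in R 4.3.3. DESeq2 1.42.0 was an alternative. The genes that set a class, group or split were left out of its tests. The script was tested on simulated data. Sums compared come from the same libraries, which is the pairing the alternative with the library as a block uses. Genes named for a split are the 10 largest differences upward and the 5 downward that passed and went the same way in both libraries, besides the partner genes and lists. The 3 genes, the gates, the partners and the lists were chosen with earlier results of these data known. The glutamatergic partners, the partners within groups and the alternative that allows 1 other-transmitter UMI for each 5 own were added after the tables were seen. Shares, intervals and co-detection used Python 3.11.15 with scipy 1.17.1. Library 1 enters only as an alternative. Some genes that belong to the lists or to the named genes are not reported here.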

Additional observations from a re-analysis of the deposited data

Results flagged for a closer look

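Library 1, which the comparisons do not use, held the 3 genes in larger shares of its 819 barcodes than libraries 2 and 3 did. *Pvalb* was found in 20 barcodes (2.44%), *Calb1* in 418 (51.0%) and *Calb2* in 81 (9.89%). Over all barcodes of libraries 2 and 3 the shares were 0.211% and 0.218% for *Pvalb*, 12.2% and 13.4% for *Calb1* and 1.34% and 0.894% for *Calb2*. Library 1 was deeper per barcode, with a median of 7725 UMIs. Thinned to 1200 UMIs, *Calb1* was at 10.6% against 3.88% and 4.13%, and *Calb2* at 1.73% against 0.211% and 0.114%. *Pvalb* was at 0.339% against 0.0436% and 0.0273%. These thinned shares leave out 12 barcodes of library 1 with fewer than 1200 UMIs, and 796 and 403 of libraries 2 and 3. The *Calb1* level of library 1 was 72.0 CPM (19.6 to 184) in the 7 GABAergic and 56.3 CPM (33.9 to 87.9) in the 42 glutamatergic barcodes. Levels were 67.1 CPM (13.8 to 196) in the 6 oligodendrocyte and 80.2 CPM (74.0 to 86.8) in the other 764 barcodes. These intervals overlap, and the GABAergic and oligodendrocyte levels rest on 4 and 3 UMIs. They cannot show whether its classes separate as those of libraries 2 and 3 did. The cause of the larger shares was not tested.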

How the results depend on the processing

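The 2 libraries and the 10 and 20 nuclei limit what can be said of *Pvalb* and *Calb2*, and leaving out a library gives values with no test. With the library as a block, the pairing raised the calls to 3207 between the classes (2108 without it), 273 for nuclei without a gate (140), 1334 for *Calb1* in GABAergic nuclei (408), and 118 and 77 for *Calb1* and *Calb2* in glutamatergic nuclei (0). The call of no member changed with the block. Adding library 1 left 0 calls between the classes and for the *Pvalb* and *Calb2* splits of GABAergic nuclei, where only 2191 and 2357 genes were tested. It left 732 for *Foxp2* (1182), 72 for *Sst* (195), 404 for *Moxd1* (669), 199 for *Vip* (412) and 187 for the *Calb1* split. *Calb1* between the classes then was 2.01. DESeq2 gave 79 of 3252 genes for *Calb2* in GABAergic nuclei (250 of 10116) and 3 and 3 in the glutamatergic splits. No filter on low counts gave 313 for nuclei without a gate, and 58 and 72 in the glutamatergic splits. Leaving out doublet-like barcodes gave 269 for *Pvalb* (175), and 4 and 64 in the glutamatergic splits. At least 4 transmitter UMIs gave 720 for *Foxp2* and 55 for *Pvalb*, and turned *Calb1* in the glutamatergic *Calb2* split to 0.49 (edgeR adjusted p = 0.987). Allowing 1 other-transmitter UMI for each 5 own gave 78 for *Calb2* in GABAergic nuclei, and 1 and 7 in the glutamatergic splits. A split at 2 UMIs gave 618 for *Calb1* and could not be made for *Pvalb* or *Calb2* in GABAergic nuclei.

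Shares moved with depth and gates. For *Pvalb* in GABAergic nuclei they were 0.133% thinned, 0.0739% at 2 UMIs, 0.538% without doublet-like barcodes, 1.49% at 4 transmitter UMIs and 0.639% with library 1. For *Calb1* the same settings gave 10.7%, 19.7%, 27.3%, 36.4% and 38.7% in GABAergic and 2.94%, 9.04%, 22.1%, 28.8% and 28.1% in glutamatergic nuclei. *Calb2* was at 0.229% thinned, 0% at 2 UMIs and 10.9% with library 1 in GABAergic nuclei, and at 0.300%, 0.517%, 5.92% (4 transmitter UMIs) and 5.73% (library 1) in glutamatergic nuclei, where library 1 put *Pvalb* at 0.794%. Leaving out a library gave 2.37 to 2.61 for *Calb1* and −0.43 to −0.05 for *Calb2* between the classes. Of 99 gene counts under alternatives, 71 stayed within 1.5 times the main count. Some of these could not move: filters on detected genes, mitochondrial and hemoglobin reads left the GABAergic nuclei at 388 and 677. Where the main count was 0, only 0 was taken as within that range. The causes of these shifts were not tested.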

Other observations

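In the *Foxp2* group, 7 of 16 tested genes of the EF-hand list were higher than in the other groups, among them *Kcnip3*, *Kcnip4*, *Caln1*, *Necab1*, *Kcnip2* and *Hpcal1*, and *Kcnip1* was lower by −2.40, with a list median of 0.50 against 0.04 over all genes. Over all genes tested, 10.1% were higher and 6.86% lower in this group. Of 21 genes of calcium transport, 8 were higher and *Slc8a3* was lower in this group, and 8 of 13 tested fast-spiking genes were lower. In the *Moxd1* group, where *Calb1* was highest, *Kcnip1* was higher by 0.72 and *Kcnip4*, *Caln1* and *Ncald* were lower, of 16 tested EF-hand genes, against 5.41% higher and 4.17% lower over all genes. There, *Itpr2*, an intracellular calcium release channel, was higher by 1.71, 5 of 21 calcium transport genes were lower (*Ryr1*, *Atp2b4*, *Slc8a2*, *Cacna1g* and *Cacna1e*), and 7 of 13 fast-spiking genes were higher, with *Sox6* at 3.31 and *Kcnc2* at 1.35. In the same fit the *Sst* group had 0 of 16 EF-hand genes higher and 1 lower, against 2.18% and 0.616% over all genes. The *Vip* group had 3 and 1, against 3.47% and 2.43%, and the nuclei without a gate 1 and 0, against 1.8% and 0.2%. These are edgeR calls at an adjusted p of 0.05 against the mean of the other 4 groups, and the groups share 1 fit.

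Barcodes outside the 4 classes also held the genes. *Calb1* was found in 229 of 2394 (9.57%) in library 2 and 350 of 2552 (13.7%) in library 3, at 40.4 and 45.3 CPM, *Calb2* in 19 and 25, and *Pvalb* in 4 and 4.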
